A study of Oryctolagus cuniculus with 3 samples.

Results

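The genes described here encode proteins of the elastic fibre and the enzymes that crosslink it. They were chosen by name from a list of 10, and a gene counted as a member when the symbol of its row in the deposited table equalled one of those names. Of the 10 names, 8 had a row (FBN1, FBLN5, EMILIN1, MFAP4, LOX, LOXL1, LOXL2 and LOXL4) among 15248 rabbit genes in all. The remaining 2, ELN (tropoelastin) and EFEMP2 (a fibulin), are not analysed here, so nothing below describes elastin itself. RNA came from the media of the aorta, its layer of smooth muscle and elastic sheets, in male JW/CSK rabbits aged 9 months. The 3 groups were non-transgenic rabbits fed chow, non-transgenic rabbits fed high cholesterol for 20 weeks, and rabbits transgenic for mouse PGC-1alpha, a transcriptional coactivator, fed likewise. Each group is 1 library made from the pooled RNA of 5 rabbits, so the spread between animals is unknown, no difference has a replicate check, and no p-value was computed. The labels do not name the promoter that drives the transgene. The comparisons address the effect of the diet on the vessel wall and, on that diet, the effect of the transgene.

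Elastic fibres give the aorta its recoil. Tropoelastin is laid down on a scaffold of fibrillin microfibrils, fibulins and other adaptor proteins guide it there, and copper-dependent lysyl oxidases then join its lysine side chains into stable crosslinks. In the aortic wall these proteins are made mainly by smooth muscle cells, and the fibres are laid down early in life and turn over slowly. Lysyl oxidases also crosslink fibrillar collagens, which are deposited in remodelling and fibrous tissue.

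Values are FPKM, the fragments of a gene scaled to its length and to the mapped total of the library, and 3 values in a row always run from the chow library over the non-transgenic to the transgenic library on cholesterol. FPKM summed to between 824460 and 943181 per library, and the absolute depth is unknown. Differences are log2(FPKM + 1) of 1 library minus another, over the 11597 genes whose mean was 1 FPKM or more, a filter that all 8 members passed. A difference of 1 is 2-fold on this scale. Mouse Ppargc1a had 12.8 FPKM in the transgenic library and was listed at 0 in the other 2, as labelled. The library names end in L3 for chow and in L2 for both cholesterol libraries, so whatever these marks stand for cannot be told apart from the diet.

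On the cholesterol diet the 4 lysyl oxidase members were all higher than on chow, LOXL2 and LOXL4 by at least 2-fold, while 3 of the 4 structural members were lower. Over the 8 members, 2 were at least 2-fold higher, which is 25.0% of them against 15.9% of all genes tested, and 0 were at least 2-fold lower, against 6.99% of all genes. The median difference was 0.46 for the 8 members, 1.12 for the 4 lysyl oxidases and -0.61 for the 4 structural members, beside 0.02 over all genes. In the transgenic library the 4 lysyl oxidases were all lower than in non-transgenic rabbits on the same diet, with a median of -0.78. Of the 8 members 1, LOX, was at least 2-fold lower there, which is 12.5% against 2.10% of all genes, and 0 were at least 2-fold higher, against 1.70% of all genes. The median over the members was -0.32, beside -0.01 over all genes. Counts this small describe these libraries only. The diet and genotype comparisons share the non-transgenic cholesterol library, so the directions of the lysyl oxidases in them are not independent. Of all 11597 genes tested, 5925 were higher on the diet and 5998 were lower in the transgenic library than in the non-transgenic cholesterol library.

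**Figure D1:**
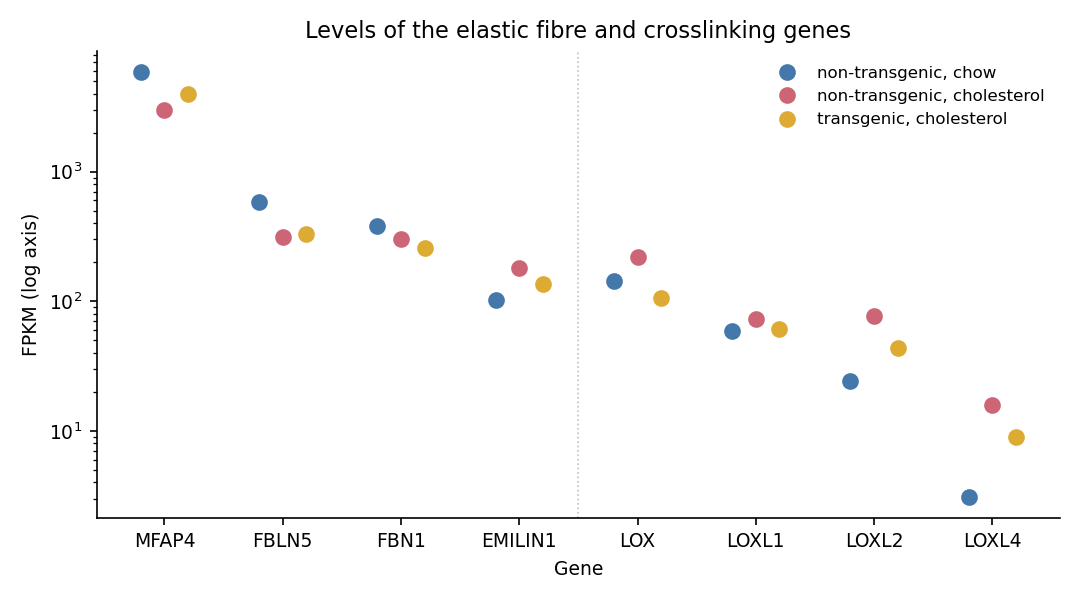
FPKM (log axis) of the 8 genes in the 3 pooled libraries, 1 point per library, with structural proteins left of the dotted line and lysyl oxidases right of it. MFAP4 is the most abundant at 3010 to 5887 FPKM and LOXL4 the least at 3.11 to 15.8 FPKM, and the 4 lysyl oxidases each have their highest point in the non-transgenic cholesterol library.

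Among the structural members, MFAP4 was by far the most abundant. MFAP4 encodes a glycoprotein of microfibrils that binds elastin and fibrillin (ENSOCUG00000015162, OryCun2.0 unplaced scaffold GL018817, 320282 to 322425, protein coding). It stood at 5887, 3010 and 3981 FPKM, so chow was highest and the non-transgenic cholesterol library lowest. On chow its level exceeded that of 99.8% of the genes tested, and it made up 82.0%, 71.8% and 80.8% of the summed FPKM of the 8 members in the 3 libraries. The diet difference of -0.97, or 1.96-fold lower, lies just short of the 2-fold mark. The genotype difference was 0.40. Whether the annotated span of MFAP4 covers the whole gene was not checked, and its level against other genes depends on that.

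FBLN5 encodes fibulin-5, an adaptor that binds tropoelastin, cell-surface integrins and LOXL1 (ENSOCUG00000013175, chromosome 20, 13959179 to 14040563, protein coding). It stood at 582.6, 314.0 and 333.6 FPKM, high on chow and nearly alike in the cholesterol libraries. Its diet difference was -0.89, with 8.70% of all genes below it, and its genotype difference was 0.09. FBLN5 was 1.75-fold lower in the transgenic library than on chow (difference -0.80).

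FBN1 encodes fibrillin-1, the main building block of microfibrils (ENSOCUG00000003866, chromosome 17, 23801721 to 24061952, protein coding). Its values were 382.9, 304.2 and 256.1 FPKM, so the transgenic library was the lowest of the 3. The diet difference was -0.33, the genotype difference -0.25, and it was -0.58 between the transgenic and the chow library. Unlike MFAP4 and FBLN5, FBN1 was thus not closer to chow in the transgenic library.

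EMILIN1 encodes a glycoprotein at the border of elastin and microfibrils that restrains TGF-beta processing in mice (ENSOCUG00000006872, chromosome 2, 158973677 to 158980409, protein coding). It was the structural member that was higher on the diet, at 102.4, 179.8 and 137.0 FPKM. The diet difference of 0.81 and the genotype difference of -0.39 were both under 2-fold. Since FPKM is per length, levels can be set against each other within a library, as far as the annotated genes are complete. EMILIN1 stood at 0.176 of the FBLN5 level on chow, 0.573 in the non-transgenic and 0.411 in the transgenic cholesterol library. The ratio of MFAP4 to FBLN5 was 10.1, 9.59 and 11.9.

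**Figure D2:**
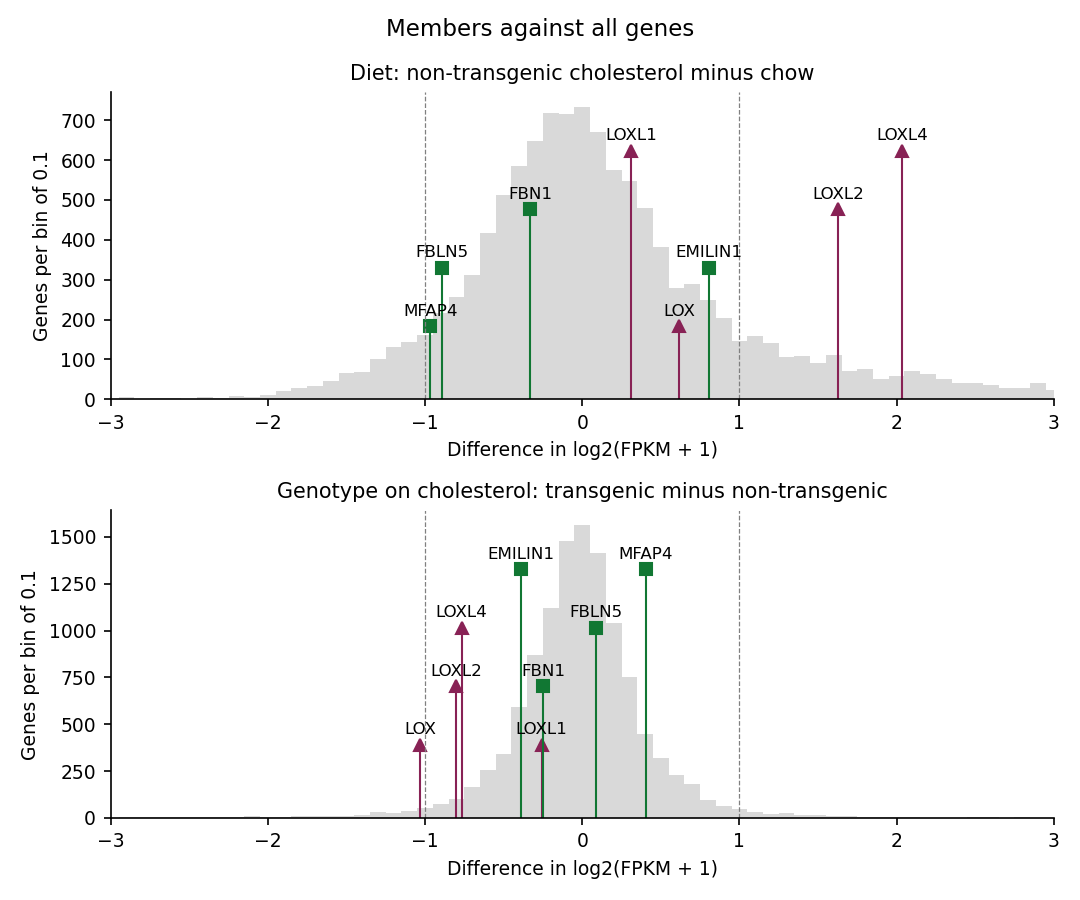
Differences in log2(FPKM + 1) of the 8 members (green squares, structural proteins, and purple triangles, lysyl oxidases) over the histogram of all 11597 genes, with dashed lines at 2-fold, for the diet (top) and the genotype (bottom). Marker heights only keep the names apart, and genes beyond 3 in size are not drawn. LOXL4 at 2.03 and LOXL2 at 1.63 lie past 2-fold for the diet, and LOX at -1.03 for the genotype.

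The lysyl oxidases oxidise lysine side chains of elastin and collagen. LOX, the founding member (ENSOCUG00000003313, chromosome 3, 6327805 to 6342408, protein coding), stood at 142.9, 219.7 and 106.9 FPKM. It was the one of the 4 members of the family whose transgenic value lay below chow. The diet difference was 0.62, or 1.54-fold higher, and the difference between the transgenic and the chow library was -0.42. The genotype difference was -1.03, or 2.06-fold lower, and 1.93% of all genes had a lower one. That value sits on the 2-fold mark: after scaling each library to the same FPKM sum it was -0.90. The same scaling moved the median of all genes by 0.12, and relative to that median LOX was at -1.01, against -1.02 with the values as deposited.

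LOXL2 can also deaminate lysines of type IV collagen of basement membranes (ENSOCUG00000014596, scaffold GL018937, 273006 to 353669, protein coding). Its values were 24.2, 76.7 and 43.6 FPKM, lowest on chow and highest in the non-transgenic cholesterol library. The diet difference was 1.63, or 3.17-fold higher, and the genotype difference -0.80, or 1.76-fold lower. In the order of the 8 members it passed LOXL1 in the non-transgenic cholesterol library, by 76.7 to 72.9 FPKM, a gap too small to order them without replicates.

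LOXL4 is a close relative of LOXL2 with scavenger receptor domains (ENSOCUG00000004988, chromosome 18, 46350107 to 46364856, protein coding). It was the least abundant member in all 3 libraries, at 3.11, 15.8 and 8.89 FPKM. Its level exceeded that of 19.1% of the genes tested on chow, 55.0% in the non-transgenic and 37.4% in the transgenic cholesterol library. The diet difference was 2.03 on the log2(FPKM + 1) scale, which understates the FPKM ratio of 5.09 because the chow level is low. The genotype difference was -0.77. LOXL4 was the member still at least 2-fold higher than chow in the transgenic library (difference 1.27), 12.5% of the 8 members against 12.6% of all genes. None of the 8 was at least 2-fold lower there, against 2.53% of all genes.

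LOXL1 is the lysyl oxidase tied most closely to elastin, which it reaches through fibulin-5 (ENSOCUG00000000978, scaffold GL019108, 1684 to 18083, protein coding). It differed least of the 4 lysyl oxidase members on the diet and between the genotypes, at 58.6, 72.9 and 60.8 FPKM, with a diet difference of 0.31 and a genotype difference of -0.26. The deposited table places it in a joint locus from 1684 to 85767, together with rows named STOML1, PML and ISLR2. The annotated span of ISLR2 overlaps LOXL1, and the files do not say how shared fragments were divided, so its level is less certain than those of the other 7 members, which overlap no other row.

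Within the family the make-up of the transcripts differed between libraries. Together with LOXL3, which is no member but completes the family and stood at 44.4, 40.7 and 33.5 FPKM (diet difference -0.12, genotype difference -0.27), the 5 lysyl oxidases summed to 273.2, 425.8 and 253.8 FPKM. LOX made up 52.3% of that sum on chow, 51.6% in the non-transgenic and 42.1% in the transgenic cholesterol library. LOXL2 made up 8.84%, 18.0% and 17.2%, and LOXL4 1.14%, 3.72% and 3.50%. The LOXL2 and LOXL4 shares were thus alike in both cholesterol libraries, while the LOX share was lower in the transgenic one. The ratio of LOX to LOXL2 was 5.91 on chow, 2.87 in the non-transgenic and 2.45 in the transgenic cholesterol library.

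**Figure D3:**
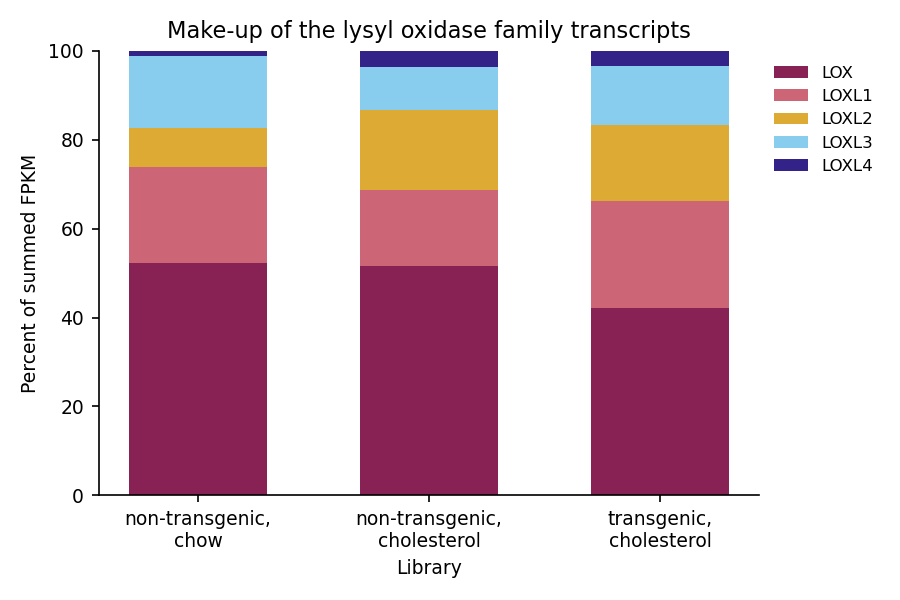
Percent of the summed FPKM of the 5 lysyl oxidase genes held by each gene, 1 stacked bar per pooled library. LOX holds 52.3%, 51.6% and 42.1%, and LOXL2 holds 8.84%, 18.0% and 17.2%.

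The balance of crosslinking to structural transcripts depended on the structural gene. The sum of the 5 lysyl oxidases was 0.469 of the FBLN5 level on chow, 1.36 in the non-transgenic and 0.761 in the transgenic cholesterol library. Against FBN1 it was 0.713, 1.40 and 0.991, and against MFAP4 0.0464, 0.141 and 0.0637, each highest in the non-transgenic cholesterol library. Against EMILIN1, the structural member that was higher on the diet, chow was highest, at 2.67, 2.37 and 1.85. LOX alone stood at 0.245, 0.700 and 0.320 of FBLN5, and at 1.39, 1.22 and 0.780 of EMILIN1. LOXL1, the enzyme that fibulin-5 binds, stood at 0.101, 0.232 and 0.182 of it. Such ratios within a library do not depend on how the libraries were scaled.

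The make-up of the tissue differed between the libraries as well. All 9 measured markers of contractile smooth muscle were at least 2-fold lower on the diet (median -1.51), with a summed level of 28412, 11580 and 15868 FPKM, and none was at 0 in any library. On the diet 11 of the 12 markers of macrophages and foam cells were at least 2-fold higher, and the 12 summed to 73.1, 3784 and 3733 FPKM, with none at 0. Between the genotypes these markers went both ways. C1QB (5.39, 27.1 and 96.0 FPKM) and C1QC (23.0, 167.2 and 449.6 FPKM) were at least 2-fold higher in the transgenic library and MSR1 (0.376, 33.7 and 8.44 FPKM) lower, with a median of -0.17 over the 12. The 9 contractile markers were all higher in the transgenic library, none by 2-fold (median 0.56). Of 7 markers of adventitial fibroblasts 2 were at least 2-fold lower (DPT, and PI16, whose non-transgenic cholesterol value is listed as 0) and 1 higher (LUM), with sums of 903.2, 605.7 and 879.0 FPKM. Without PI16 the direction of the sum on the diet turned, with 492.2, 605.7 and 581.1 FPKM. LUM (85.1, 370.4 and 195.9 FPKM) was the 1 marker higher on the diet. The other 6 of the 7 were lower, and the median over the 7 was -0.40. PI16 and DCN (238.2, 120.7 and 246.7 FPKM) were at least 2-fold higher in the transgenic library. The 8 endothelial markers summed to 66.8, 147.6 and 158.5 FPKM with 3 at least 2-fold higher on the diet (VWF, EMCN and ROBO4), and 4 T cell genes to 3.54, 5.69 and 2.87 FPKM. CDH5 and ERG lay just short on the log2(FPKM + 1) scale (0.93 and 0.97), with FPKM ratios of 2.06 and 2.09. None of these 12 endothelial and T cell genes reached 2-fold between the genotypes on the log2(FPKM + 1) scale. As FPKM ratios, CD3E (2.20, 2.81 and 1.13 FPKM) and CD2 (0.153, 1.24 and 0.487 FPKM) were 2.49-fold and 2.56-fold lower in the transgenic library. These levels are low, and only 2 of the 4 T cell genes passed the filter. In bulk RNA, fewer cells of a type and less RNA per cell cannot be told apart. The part of these markers in the differences of the members was not tested.

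Relative to the contractile genes of the same library, all 8 members were higher on the diet, as were 96.5% of the 11306 tested genes above 0 in every library, because this reference was itself lower on the diet. The reference was the geometric mean of the 9 contractile genes, at 745.2, 269.9 and 410.1 FPKM. MFAP4 stood at 790.1%, 1115% and 970.9% of it, FBLN5 at 78.2%, 116.3% and 81.3%, and FBN1 at 51.4%, 112.7% and 62.4%. These 3 genes were thus lower on the diet by a smaller factor than the contractile genes. LOX stood at 19.2%, 81.4% and 26.1%, and LOXL4 at 0.417%, 5.86% and 2.17%. On this measure all 8 members had their highest value in the non-transgenic cholesterol library, as did 91.6% of those genes, so the order of the libraries is not a result about the members. The genotype difference of MFAP4 and FBLN5, above 0 in FPKM, turned to -0.20 and -0.52.

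**Figure D4:**
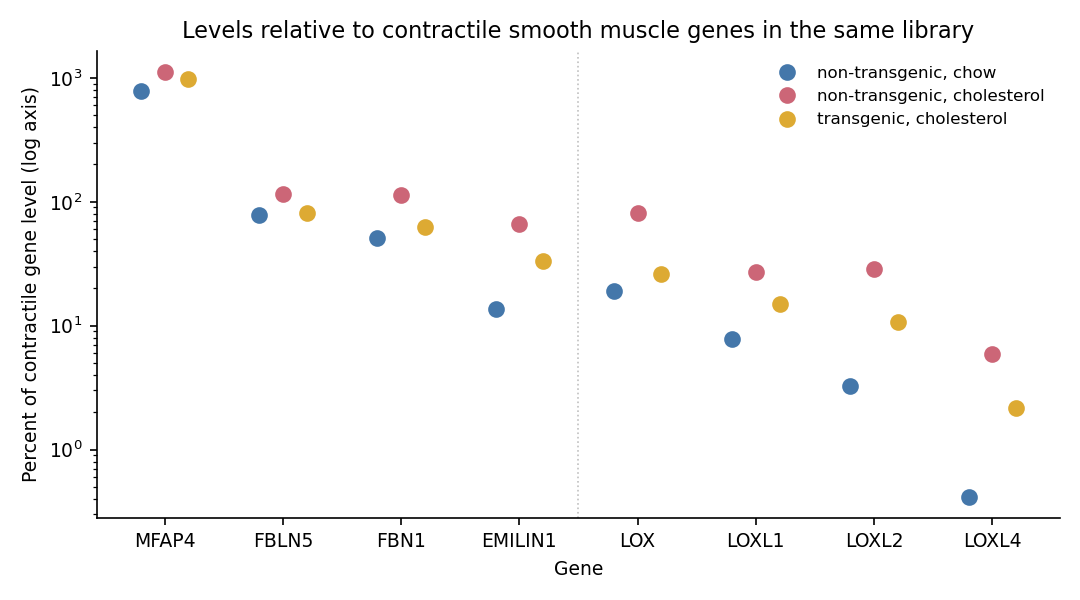
FPKM of each member as a percent of the geometric mean of 9 contractile smooth muscle genes in the same library (log axis), 1 point per pooled library. The non-transgenic cholesterol library is highest and chow lowest for these 8 genes, as for 88.4% of 11306 genes, since the reference is lowest in the former and highest on chow. The members' values run from 78.2% to 116.3% for FBLN5 and from 0.417% to 5.86% for LOXL4.

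The other genes of the pathway were taken from a list of 44 names for microfibril proteins, crosslinking enzymes, copper supply and their regulators, of which 38 had a row and 36 passed the filter. On the diet 10 of these 36 were at least 2-fold higher (27.8%, against 15.9% of all genes) and 5 lower (13.9%, against 6.99%), with a median of 0.28. The list was chosen with earlier results of these data known, so its shares describe the list only. The 5 lower genes were LTBP4, MYLK, ADAMTSL4, PCOLCE2 and MFAP5. LTBP4, which binds fibulin-5 and is needed for elastic fibre assembly in mice, had the largest of these differences (-2.01), at 1481, 367.0 and 599.3 FPKM. LTBP4 stood at 2.54 times the FBLN5 level on chow, 1.17 times in the non-transgenic and 1.80 times in the transgenic cholesterol library. The annotated span of LTBP4 runs from 9484 to 14317, and whether that covers the whole gene was not checked. MFAP5, a microfibril glycoprotein, stood at 346.4, 153.9 and 242.8 FPKM (difference -1.17). ADAMTSL4, which promotes fibrillin-1 fibril formation, stood at 292.3, 123.9 and 184.7 FPKM (difference -1.23). MYLK is a kinase of the contractile apparatus, in the list because its loss of function causes aortic disease, and PCOLCE2 enhances procollagen processing, so neither is an elastic fibre protein. They stood at 579.9, 182.5 and 296.1 FPKM and at 267.8, 115.0 and 170.4 FPKM.

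The 10 genes of that list past 2-fold higher held matrix scaffolds, a protease, the copper route and lysosomal proteins. POSTN, periostin, a scaffold that in mice helps activate LOX, had the largest difference (4.06), at 21.4, 370.7 and 156.2 FPKM. FN1, fibronectin, stood at 873.8, 2683 and 1943 FPKM (1.62), and BMP1, the protease that releases active LOX from its proenzyme, at 35.5, 98.2 and 52.7 FPKM (1.44). FBLN7, a fibulin, stood at 5.73, 28.0 and 11.8 FPKM (2.11), and EMILIN2, a relative of EMILIN1, at 12.2, 29.3 and 33.9 FPKM (1.20). Copper reaches lysyl oxidases by the importer SLC31A1, the chaperone ATOX1 and the pump ATP7A, which loads them in the secretory path. SLC31A1 stood at 3.85, 15.1 and 14.7 FPKM (1.73), ATOX1 at 35.8, 144.2 and 134.0 FPKM (1.98), and ATP7A at 5.89, 14.4 and 14.1 FPKM (1.16). GLB1, a lysosomal galactosidase with a splice form that binds elastin, stood at 73.7, 630.4 and 375.9 FPKM (3.08), and CTSA, its lysosomal partner, at 142.9, 487.2 and 466.2 FPKM (1.76). These are whole-tissue values, and the copper and lysosomal genes are expressed in many cell types.

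Between the genotypes 2 of the 36 genes, POSTN and FBLN7, were at least 2-fold lower in the transgenic library (5.56%, against 2.10% of all genes) and 0 were 2-fold higher (against 1.70%), with a median of -0.06. Their differences were -1.24 for POSTN and -1.18 for FBLN7. BMP1 was next at -0.88, followed by GLB1 at -0.74, and LTBP4 was 0.71 higher. The 3 copper genes differed little between the cholesterol libraries, with -0.03 for SLC31A1, -0.10 for ATOX1 and -0.03 for ATP7A. LOX, LOXL2 and LOXL4 differed by -1.03, -0.80 and -0.77, but LOXL1 and LOXL3 by only -0.26 and -0.27. The differences between these groups of genes were not tested.

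**Figure D5:**
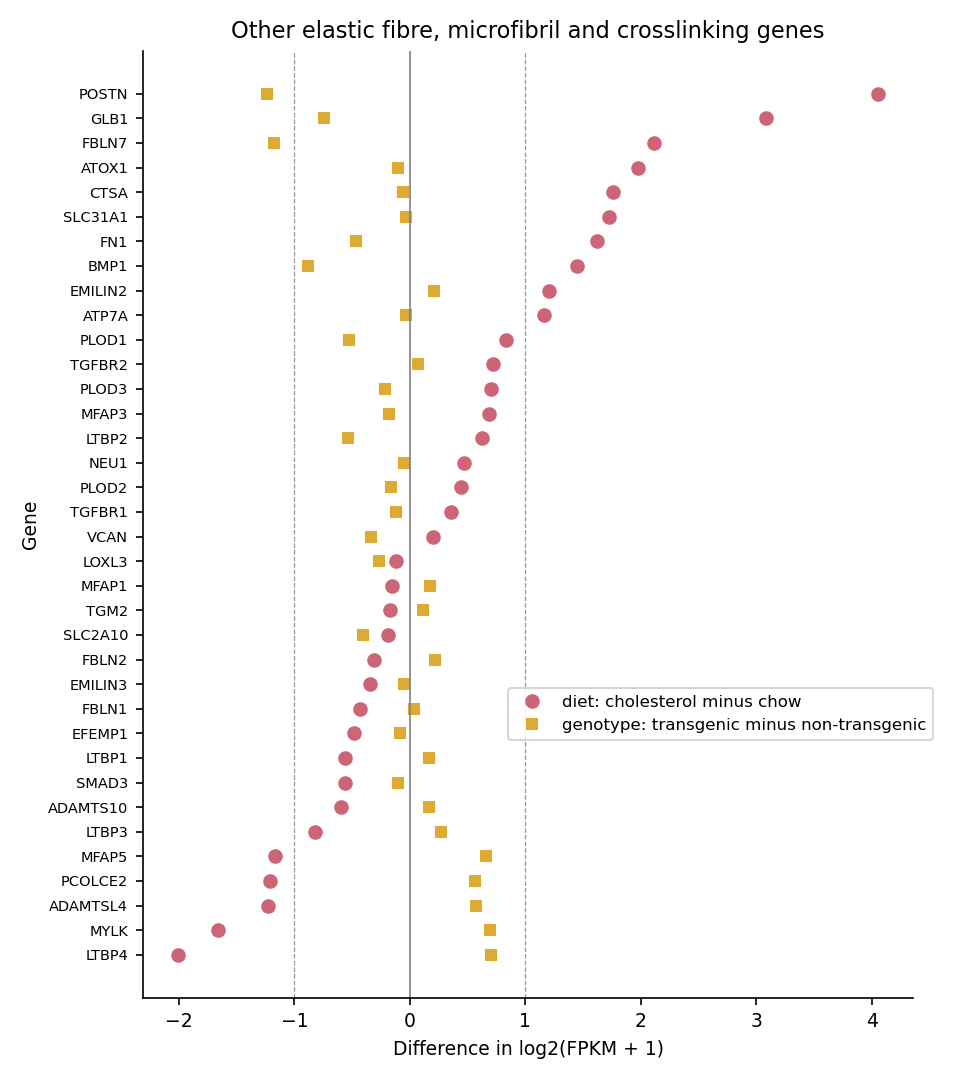
Differences in log2(FPKM + 1) for the 36 other pathway genes that passed the filter, ordered by the diet difference, with circles for the diet and squares for the genotype and dashed lines at 2-fold. Diet differences run from -2.01 (LTBP4) to 4.06 (POSTN), and genotype differences from -1.24 (POSTN) to 0.71 (LTBP4).

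Proteases that can degrade elastin were higher on the diet, while their inhibitors went both ways. Of 18 names 11 had a row, and 8 of the 11 were at least 2-fold higher (72.7%, against 15.9% of all genes), with a median of 2.68. These names, too, were chosen with earlier results of these data known. MMP12, the macrophage elastase, was listed at 0, 1137 and 569.5 FPKM, and the cathepsins CTSS and CTSV stood at 6.86, 335.4 and 293.2 FPKM and at 26.9, 465.8 and 298.0 FPKM. TIMP1, an inhibitor of metalloproteinases, stood at 73.6, 475.9 and 268.2 FPKM. The inhibitor TIMP3 was lower on the diet (difference -0.39), at 327.8, 249.8 and 259.9 FPKM. TIMP4 was low throughout, at 1.11, 2.18 and 3.81 FPKM (diet difference 0.59). None of the 11 reached 2-fold between the genotypes. MMP12 came nearest, just short of 2-fold lower in the transgenic library, then TIMP1 with a difference of -0.83 and the membrane protease MMP14 with -0.78 (39.0, 150.6 and 87.5 FPKM). On the diet the 12 macrophage markers described above were all higher. Between the genotypes 9 of the 11 genes were lower (median -0.56), and the other 2, the inhibitors TIMP3 and TIMP4, were higher (0.06 and 0.60). Of the 12 macrophage markers 7 were lower in the transgenic library and 5 higher, with a median of -0.17. The part of these markers was not tested.

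The genes whose pair of diet and genotype differences lay closest to that of LOX, among 8104 other named genes of 5 FPKM or more on average, were LSM10 (14.6, 22.2 and 10.6 FPKM), EXTL2 (13.0, 19.4 and 8.90 FPKM) and MRPL42 (20.7, 31.0 and 13.7 FPKM). Their distances were 0.05, 0.07 and 0.11 on the log2 scale, and with 3 libraries such likeness is a description only.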

How the data were processed

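The authors deposited FPKM values per gene, named as such in the file headers, for 3 pooled libraries of poly(A)-enriched RNA made with a TruSeq kit, per the labels' protocols. The submitters' processing notes name the build OryCun2.0. Not given in the sources used here are the aligner, the counting program, the use of strand and any scaling of one library to another. Of 15249 rows in the main table, 15248 belong to rabbit. A row matched a name when any of its joined symbols equalled it. The numbered value columns were matched to the groups by the library numbers in the labels. The other sheets repeat these values under group names, which served the same matching, and were not used otherwise.

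Differences were log2(FPKM + 1), computed with Python 3.11.15, pandas 2.3.3 and numpy 2.4.6 over the 11597 rabbit genes averaging 1 FPKM or more, and were counted at 1 or more in size. The pseudocount shrinks differences of low genes. The calculation was tested on simulated libraries without noise, with known changes in abundant genes and scaling by the median ratio. That checks the code only and says nothing about low genes or the spread between animals. The lowest FPKM values stand in whole-number ratios between libraries, which put the depth at 1.29 (non-transgenic cholesterol) and 1.25 (transgenic) times that of chow. Such a ratio was met to within 1% by 62.5% and 60.9% of 435 low genes, and by 1.84% at the median of the constants tried. Depth being relative only, no counting interval could be made.

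The members and lists were chosen with earlier results of these data known. Named genes are the members, the 5 other pathway genes and the 3 elastolytic genes with the largest difference in each comparison, members of counts of 5 or fewer, and the 3 genes nearest to LOX. ELN, which the rule also gave for that search, was not analysed. FN1, EMILIN2, SLC31A1, ATP7A, CTSA and LOXL3 were named after their values were seen. The alternatives were 2 other pseudocounts, 2 scalings and 3 filters. The diet and genotype comparisons share the non-transgenic cholesterol library, so no agreement between them was computed.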

Additional observations from a re-analysis of the deposited data

How the results depend on the processing

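No paired analysis was possible because each group has 1 library. For the same reason no library could be left out. All 16 member differences kept their sign under both other pseudocounts and both scalings, and 1 of 64 recomputed values crossed 2-fold: with FPKM scaled to the same sum per library, the count of members at least 2-fold lower in the transgenic library was 0 instead of 1, through LOX. The counts of 2 members higher and 0 lower on the diet, and of 0 higher for the genotype, were the same under these 4 settings. The median diet difference of the members was 0.47 with a pseudocount of 0.1, 0.45 with a pseudocount of 5, 0.45 scaled by the median ratio and 0.53 scaled to the same sum. The median genotype difference was -0.33, -0.31, -0.32 and -0.19 under these settings. With a pseudocount of 5 the share of all genes at least 2-fold higher and lower was 9.64% and 3.56% for the diet, and 0.647% and 0.828% for the genotype. With a pseudocount of 0.1 the share higher for the genotype was 2.79%, and with a mean of at least 5 FPKM the share lower was 1.32%. The remaining settings, with no filter or without genes listed at 0 among them, kept these shares within 1.5 times. The largest move of a member was 0.67, for the diet difference of LOXL4, which has the lowest level.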
